A study of Rattus norvegicus with 4 samples.

Results

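The genes described here encode the complement and coagulation proteins that the liver releases into plasma, together with the inhibitors and fibrinolytic proteins that act beside them. They were chosen by symbol from a list of 47 genes, and the rows of each symbol were summed in each library. Of the 47 genes, 45 had a row under their symbol, and all 45 had a mean of at least 1 TPM (a level corrected for transcript length and library size) over the 4 libraries, among 9201 genes at that level of 16999 named genes in all. *C5* and *C7* had no row under those symbols.

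The libraries come from livers of wild type rats that inhaled either 4.5% sevoflurane or 6% desflurane, both halogenated ether anesthetics. The sevoflurane 0 h and desflurane 0 h rats were killed as soon as they lost consciousness, so the controls had also inhaled the agent briefly, and the sevoflurane 6 h and desflurane 6 h rats after 6 h of anesthesia. There is 1 library per group, so each value below is a single measurement without a replicate. According to the series description, control and anesthetized rats were killed 6 h apart, so the length of anesthesia and the time of day cannot be told apart in any 6 h against 0 h comparison. In bulk liver, fewer cells of a type and less RNA per cell cannot be told apart either.

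Complement is a chain of plasma proteases and binding proteins that tag and lyse foreign cells. It is started by C1q bound to antibody (classical pathway), by mannose-binding lectin bound to sugars (lectin pathway) or by spontaneous turnover of C3 (alternative pathway), and all of these lead to the membrane attack complex. Coagulation is a similar chain of proteases that ends in thrombin, which turns fibrinogen into a fibrin clot. Hepatocytes make most of both systems, whereas C1q comes mainly from macrophages, which in the liver are Kupffer cells.

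The depth, estimated from coverage and FPKM, was 3.50 to 5.57 Gb of aligned bases, with sevoflurane 0 h the shallowest. Albumin, the main hepatocyte product, was between 53282 and 58868 TPM. The 45 genes together held between 3.75% and 4.21% of the TPM of all named genes, and their share was 4.21% in sevoflurane 0 h, 3.84% in sevoflurane 6 h, 4.17% in desflurane 0 h and 3.75% in desflurane 6 h. Both 6 h shares were thus below both 0 h shares. Of the 45 genes, 8 had a mean of at least 1000 TPM, 26 were between 100 and 1000 TPM and 11 were below 100 TPM. The highest was *Fgb*, which ranked 20 among all named genes.

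Few of these genes differed by 2-fold. With sevoflurane, 1 of the 45 genes, *Mbl2*, was more than 2-fold lower at 6 h with more than 2 TPM in the higher library, against 8.75% of all genes above 2 TPM that differed this far in either direction. With desflurane 0 of the 45 genes did so, against 9.65% of all genes. The controls differed by more than 2-fold in 0 of the 45 genes (2.76% of all genes) and the 6 h livers in 0 of them (3.99% of all genes). With a lower limit, the higher value exceeding the lower by more than 25%, 8 genes differed with sevoflurane (17.8%, against 46.4% of all genes) and 7 with desflurane (15.6%, against 47.2%). Among the 711 named genes with a mean of at least 100 TPM, whose values vary less, these shares were 30.9% and 26.4%. *F5* (higher), *Mbl1*, *Mbl2* and *Fgg* (lower) passed that limit with both agents. For *Mbl2* with sevoflurane this rests on a gene listed in 2 rows in sevoflurane 0 h, and with the rows averaged it was 1.22-fold lower and did not pass.

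**Figure D1:**
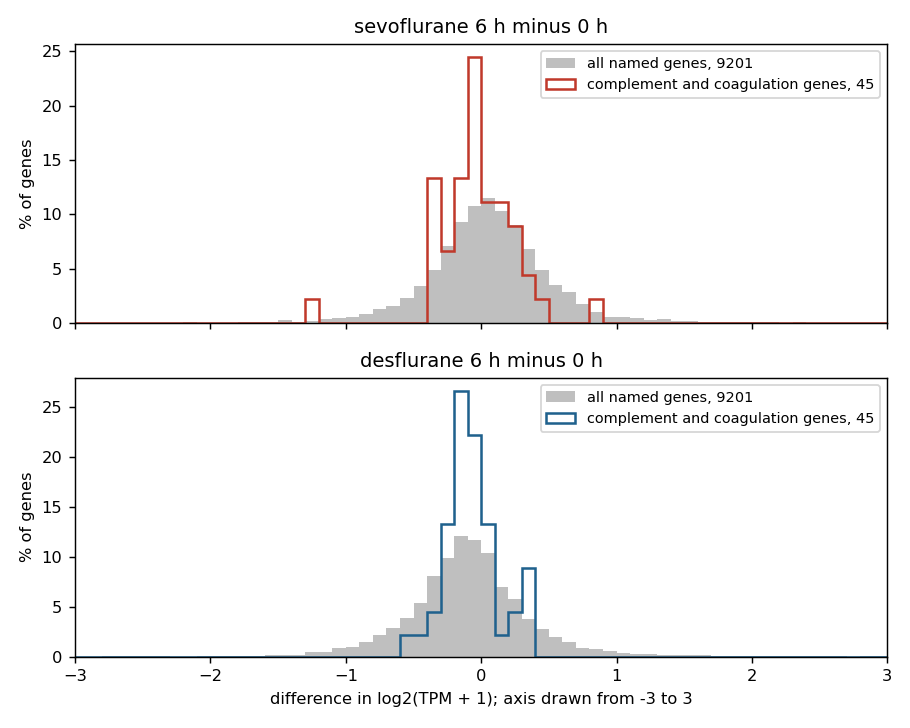
Distribution of the change in log2(TPM + 1) from 0 h to 6 h, sevoflurane above and desflurane below. Gray bars show the percentage of all 9201 named genes and outlines that of the 45 complement and coagulation genes in each bin, and the outlines are narrower than the bars with both agents.

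The median change of the 45 genes on the log2(TPM + 1) scale was -0.04 with sevoflurane and -0.09 with desflurane, beside medians of 0.05 and -0.10 for all 9201 genes. With sevoflurane 18 of the 45 genes had a higher value at 6 h and 27 a lower one, and with desflurane the split was 13 to 32. Over all 9201 genes the split was 5110 to 4091 with sevoflurane and 3521 to 5680 with desflurane. The desflurane split of the 45 genes depends on the scaling, since 24 of the 45 were higher after the libraries were scaled by the median of ratios, which moves the median of all genes by about as much as the list's (from -0.10 to 0.00). The sevoflurane split of the 45 genes was then 15 to 30. By direction, 3 genes were higher with both agents (*F5*, *F11*, *Pros1*), 17 were lower with both, 15 had a higher value with sevoflurane but a lower one with desflurane, and 10 the reverse. No gene passed the 25% limit in opposite directions with the 2 agents.

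**Figure D2:**
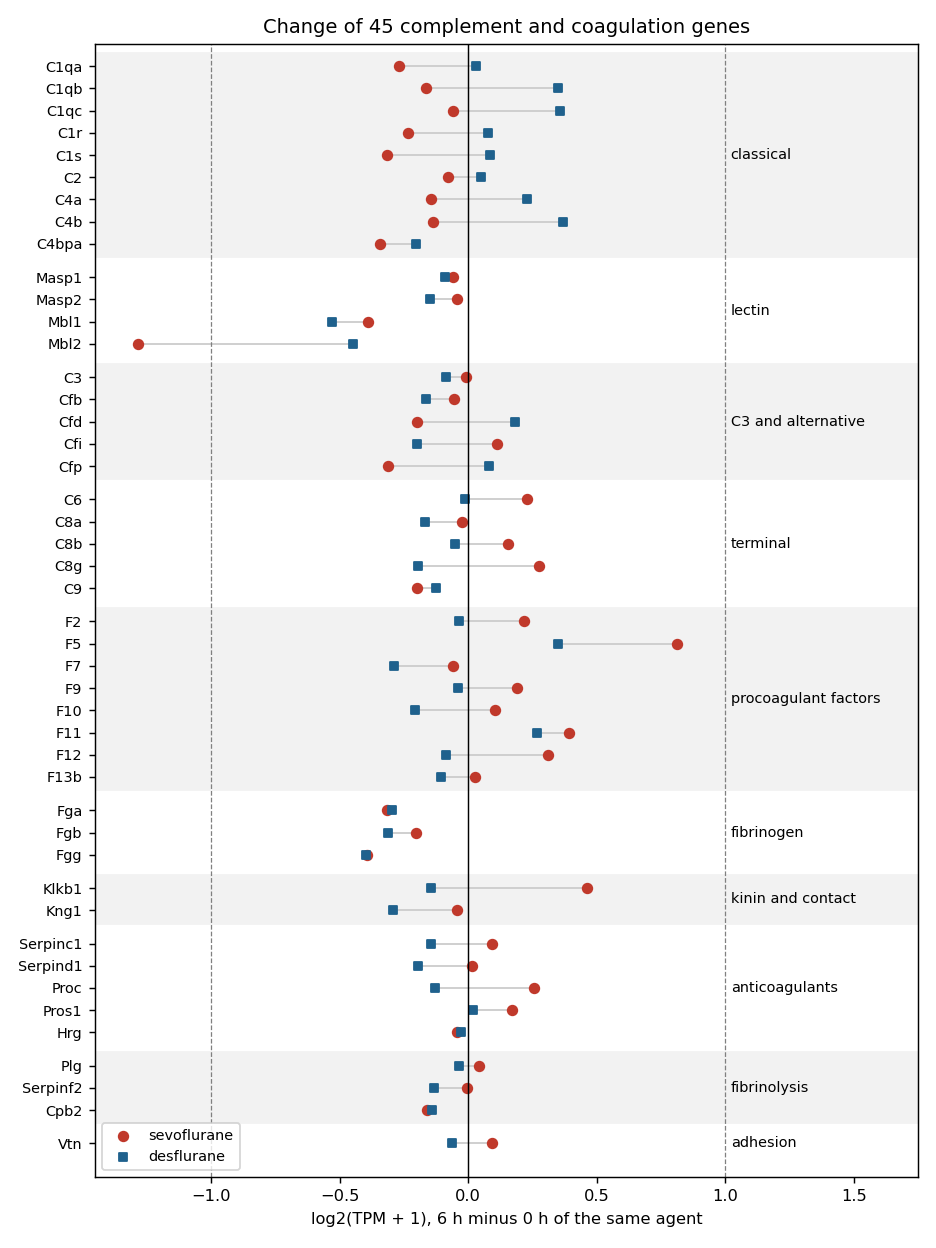
Change in log2(TPM + 1) from 0 h to 6 h of each of the 45 genes, grouped by role, with sevoflurane as circles and desflurane as squares, joined by a gray line. Dashed lines mark a change of 1 in either direction, and *Mbl2* with sevoflurane (-1.28) is the one point beyond them.

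Among the coagulation genes, the fibrinogen chains were the most abundant and were lower after 6 h with both agents. *Fga*, *Fgb* and *Fgg* encode the Aα, Bβ and γ chains, which are assembled in equal numbers into the fibrinogen molecule. They lie side by side on chromosome 2 (rn6 coordinates of the deposited tables, chr2:181997562-182013521, chr2:182028116-182035025 and chr2:181987234-181994516). *Fga* was at 3955 TPM in sevoflurane 0 h, 3173 in sevoflurane 6 h, 3901 in desflurane 0 h and 3176 in desflurane 6 h. *Fgb* was at 5368, 4659, 5331 and 4293 TPM in the same order. *Fgg* was at 4103, 3126, 4131 and 3137 TPM. For each chain both 6 h livers were below both 0 h livers, and the controls differed by 1.01-fold for each of them. With sevoflurane and desflurane respectively, *Fga* was 19.8% and 18.6% lower at 6 h, *Fgb* 13.2% and 19.5% lower and *Fgg* 23.8% and 24.1% lower.

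The summed level of the 3 chains was 13426, 10958, 13363 and 10605 TPM, which is 18.4% lower at 6 h with sevoflurane and 20.6% lower with desflurane (21.6% and 14.1% after scaling by the median of ratios). *Fgb* made up between 39.9% and 42.5% of that sum, *Fga* between 29.0% and 29.9% and *Fgg* between 28.5% and 30.9%. The chains were therefore lower together, with *Fgg* the most and *Fgb* the least with sevoflurane. All 45 genes summed to 32249, 29938, 32918 and 28925 TPM. With sevoflurane the fibrinogen sum fell by more TPM than the sum of all 45 genes, so the remaining genes together were not lower. With desflurane the fibrinogen chains account for a large part of the lower sum at 6 h.

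**Figure D3:**
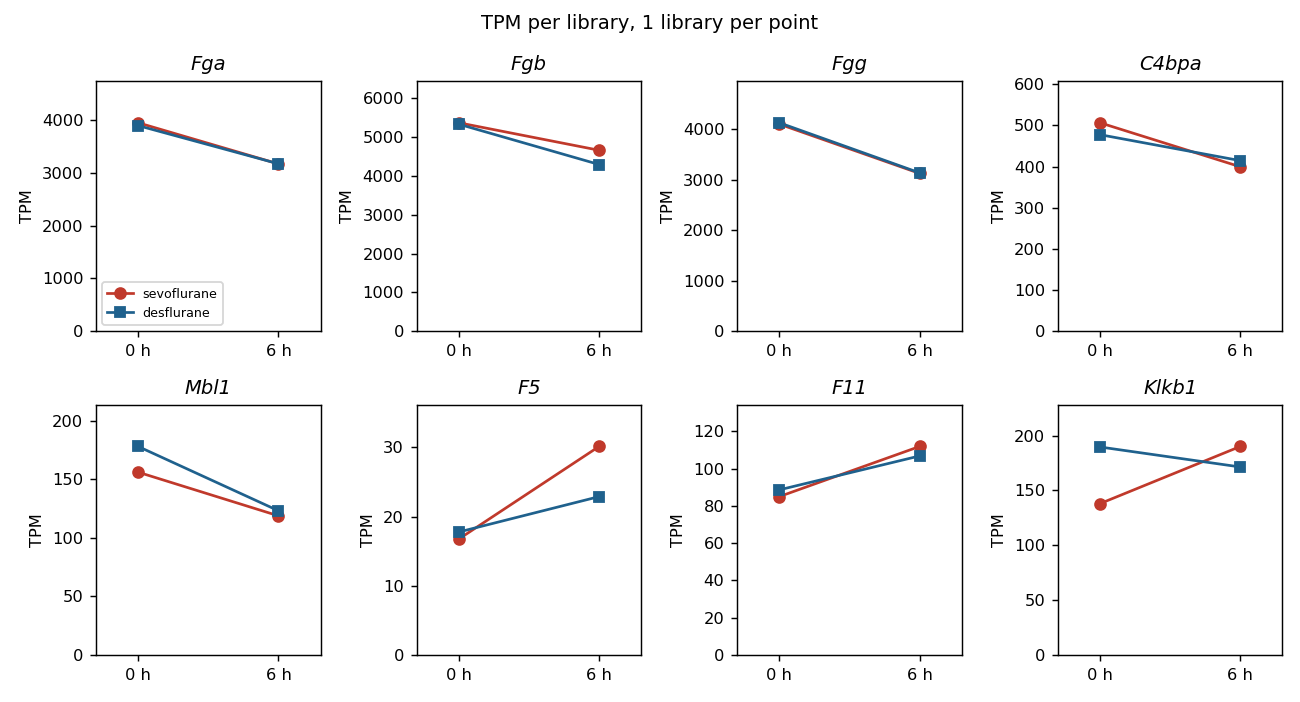
TPM (linear axes from 0) of 8 genes at 0 h and 6 h, sevoflurane as circles and desflurane as squares, with 1 library per point. The fibrinogen chains, *C4bpa* and *Mbl1* are lower and *F5* and *F11* higher at 6 h with both agents, whereas *Klkb1* goes from 138 to 190 TPM with sevoflurane and from 190 to 171 TPM with desflurane.

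The sequences before the transcription starts of these genes are shown because the 3 chains moved together and *F11*, a neighbor of *Klkb1* on chromosome 16, moved the other way. The 250 bases before the start are given 5′ to 3′ from RefSeq on build GRCr8, where 36 of the 47 genes matched an entry, and *Fga* has 2 entries of which the first is printed. They are chr2:170671919-170672168 (plus strand) for *Fga*, chr2:170700876-170701125 (minus strand) for *Fgb*, chr2:170652833-170653082 (plus strand) for *Fgg* and chr16:53720252-53720501 (plus strand) for *F11*. Capitals mark matches on either strand to the letters TTGCNNAA (a C/EBP type site), CTGGGAA (an interleukin-6 response element of fibrinogen genes) or TTANGTAA (similar to the site of the clock-controlled factors Dbp and Tef).
Fga: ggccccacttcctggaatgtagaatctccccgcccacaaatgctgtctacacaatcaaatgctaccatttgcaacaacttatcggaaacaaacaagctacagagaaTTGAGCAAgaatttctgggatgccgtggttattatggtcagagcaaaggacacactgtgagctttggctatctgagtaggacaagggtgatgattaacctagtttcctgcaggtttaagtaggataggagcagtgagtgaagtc
Fgb: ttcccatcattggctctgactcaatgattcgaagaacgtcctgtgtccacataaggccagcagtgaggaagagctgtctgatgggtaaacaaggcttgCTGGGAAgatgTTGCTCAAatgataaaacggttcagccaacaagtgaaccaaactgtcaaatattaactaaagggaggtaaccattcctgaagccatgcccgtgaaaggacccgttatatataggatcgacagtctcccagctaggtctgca
Fgg: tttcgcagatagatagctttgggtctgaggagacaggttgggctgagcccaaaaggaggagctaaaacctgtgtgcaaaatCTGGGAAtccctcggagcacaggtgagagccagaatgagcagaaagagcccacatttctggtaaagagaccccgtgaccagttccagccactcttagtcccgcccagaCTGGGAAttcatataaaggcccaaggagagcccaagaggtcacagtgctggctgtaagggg
F11: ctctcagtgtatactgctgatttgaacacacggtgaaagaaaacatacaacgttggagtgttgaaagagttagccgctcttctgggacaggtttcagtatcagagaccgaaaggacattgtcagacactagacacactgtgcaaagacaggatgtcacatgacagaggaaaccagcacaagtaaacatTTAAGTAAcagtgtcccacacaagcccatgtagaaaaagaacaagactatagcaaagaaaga

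The *Fga* and *Fgb* windows each hold TTGCNNAA (144 and 141 bases before the start, counted from the first base of the match). CTGGGAA is found in *Fgb* (152 bases before) and in *Fgg* at a pair of places (169 and 61 bases before). The *F11* window holds TTANGTAA, 62 bases before the start. None of the listed motifs overlap another in these windows. Of all 33469 RefSeq windows of this length, 9.22% hold TTGCNNAA, 9.56% CTGGGAA and 2.04% TTANGTAA. Of the 36 windows of complement and coagulation genes, 12, 11 and 2 hold them, respectively. The 2 with TTANGTAA are those of *F11* and *F13b*. *F13b* changed by 0.03 with sevoflurane and -0.11 with desflurane on the log2(TPM + 1) scale. Such a match is a description of letters and was not tested for binding.

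The procoagulant factors, which are proteases and cofactors of the clotting chain, were mostly higher after sevoflurane (7 of 8, median 0.20) and mostly lower after desflurane (6 of 8, median -0.06), although with desflurane this turned to 6 of 8 higher (median 0.05) after scaling by the median of ratios. *F5* encodes factor V, the cofactor of factor Xa in making thrombin (rn6 chr13:82479997-82535537). It was at 16.7 TPM in sevoflurane 0 h, 30.1 in sevoflurane 6 h, 17.8 in desflurane 0 h and 22.9 in desflurane 6 h. With sevoflurane this is the highest ratio of 6 h to 0 h among the 45 genes (1.80-fold), and with desflurane the ratio was 1.29-fold, while the controls differed by 1.06-fold. *F11* encodes factor XI, a protease that activates factor IX (rn6 chr16:50179458-50201373). It was at 85.0, 112, 88.6 and 107 TPM in the same order, 1.32-fold and 1.21-fold higher at 6 h, with the controls 1.04-fold apart. For both genes the 6 h livers lay above both controls.

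The vitamin K-dependent procoagulant factors (*F2*, *F7*, *F9* and *F10*) did not share that pattern in the deposited TPM. *F2*, encoding prothrombin, was at 1177, 1370, 1259 and 1227 TPM, so that it was higher at 6 h with sevoflurane and about level with desflurane. *F9* (factor IX) ranged from 338 to 385 TPM and *F10* (factor X) from 227 to 272 TPM, and neither kept the 6 h livers on one side of the controls. After scaling by the median of ratios, however, the 6 h livers lay above both controls for *F2* and *F9*. *F7*, encoding factor VII, the partner of tissue factor, was at 44.9, 43.0, 44.5 and 36.2 TPM, with its lowest value in desflurane 6 h. The locus assembled from reads at *F7* was at 45.7, 49.3, 53.6 and 43.4 TPM, higher at 6 h with sevoflurane. *F13b*, the carrier subunit of the enzyme that cross-links fibrin, stayed between 154 and 170 TPM.

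Several differences with sevoflurane were about as large as the one between the controls. *Klkb1*, encoding the plasma prekallikrein of the contact system, was at 138 TPM in sevoflurane 0 h, 190 in sevoflurane 6 h, 190 in desflurane 0 h and 171 in desflurane 6 h. Its difference with sevoflurane (0.46 on the log2 scale) was about that between the controls (0.46), and the sevoflurane 0 h library alone is low. *F12* (factor XII, the first protease of the contact system) was at 287, 356, 353 and 332 TPM. *Proc* (protein C, which inactivates factors V and VIII) was at 312, 373, 371 and 340 TPM. In 6 of the 45 genes (*C8b*, *C8g*, *F5*, *F12*, *Klkb1* and *Proc*) sevoflurane 0 h was at least 5% below the other 3 libraries. Over all 45 genes, the change was at most as large as the difference between the controls in 14 genes with sevoflurane and in 18 with desflurane. For this count and the one before it, the share among all genes was not taken.

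Desflurane 0 h was in turn at least 5% above the other 3 libraries in 8 genes (*Masp2*, *Mbl1*, *Cfb*, *Cfi*, *F10*, *Kng1*, *Serpinc1* and *Serpind1*). The share among all genes was not taken for this count either. Of all 9201 genes, 6374 were higher in desflurane 0 h than in sevoflurane 0 h (median 0.11). The effect of scaling on this count was not tested. *Kng1*, which encodes the kininogen from which kallikrein releases bradykinin, was at 492, 477, 594 and 486 TPM. Its row overlaps that of *Kng2* on the same strand over nearly the whole gene, and the 2 rows kept a ratio of 1.10 in all 4 libraries, so these copies cannot be told apart here. Similarly, the row of *Hrg* overlaps that of LOC681544, at a ratio of 1.01 in each library.

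The anticoagulant and fibrinolytic genes moved little. *Serpinc1* (antithrombin) was at 1513, 1615, 1714 and 1548 TPM, and *Serpind1* (heparin cofactor II) ranged from 322 to 368 TPM. *Pros1* (protein S, the cofactor of protein C) was at 133, 150, 133 and 135 TPM, which puts both 6 h livers above the controls, although by 1.01-fold with desflurane. *Hrg* (histidine-rich glycoprotein, which binds heparin and plasminogen) stayed between 791 and 819 TPM. *Plg* (plasminogen, the precursor of the fibrin-cleaving protease plasmin) was at 1232, 1268, 1222 and 1190 TPM and *Serpinf2* (the plasmin inhibitor alpha-2-antiplasmin) between 288 and 323 TPM. *Cpb2*, a carboxypeptidase that slows fibrin breakdown, was 10.4% lower with sevoflurane and 9.3% lower with desflurane. *Vtn* (vitronectin, an adhesion protein that also binds the terminal complement complex) was at 2546, 2713, 2666 and 2549 TPM.

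Among the complement genes, those of the classical pathway differed in direction between the agents, with 9 of 9 lower at 6 h with sevoflurane (median -0.16) and 8 of 9 higher with desflurane (median 0.08). These counts were the same after scaling by the median of ratios. The controls were not level for these genes, however. The desflurane control had the smaller value in 7 of 9 (median difference -0.06), and in 9 of 9 after that scaling (median -0.19). The scaled change with desflurane had a median of 0.20, about the size of that gap between the controls. Whether a low single control accounts for the higher values with desflurane was not tested. The 3 chains of C1q, the antibody-binding part of C1, are encoded next to each other on chromosome 5. *C1qa* was at 117 TPM in sevoflurane 0 h, 97.1 in sevoflurane 6 h, 117 in desflurane 0 h and 120 in desflurane 6 h. *C1qb* was at 39.2, 34.9, 41.9 and 53.7 TPM and *C1qc* at 65.6, 63.0, 64.6 and 83.1 TPM. The desflurane 6 h liver had the highest value and the sevoflurane 6 h liver the lowest for all 3 chains, and the 6 h livers of the agents differed by 1.23-fold (*C1qa*), 1.54-fold (*C1qb*) and 1.32-fold (*C1qc*). With 1 library on each side this difference has no test.

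Markers of Kupffer cells and macrophages had a similar order of libraries. Of 13 such markers at 1 TPM or more, 11 were lower at 6 h with sevoflurane (median -0.26) and 12 were higher with desflurane (median 0.28), and their summed level was 538, 447, 490 and 578 TPM. Here too the desflurane control had the smaller value in most, 10 of the 13 (median difference -0.18). The defining marker *Clec4f* was at 134, 112, 134 and 141 TPM. The part of these cells in the C1q values was not tested. No marker of the 13 differed by 2-fold with either agent. Higher values with desflurane were also seen in 8 of 10 sinusoidal endothelial markers (median 0.25) and 9 of 11 stellate cell and fibroblast markers (median 0.20). With sevoflurane 4 of those 10 (median -0.02) and 8 of those 11 (median 0.39) were higher.

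**Figure D4:**
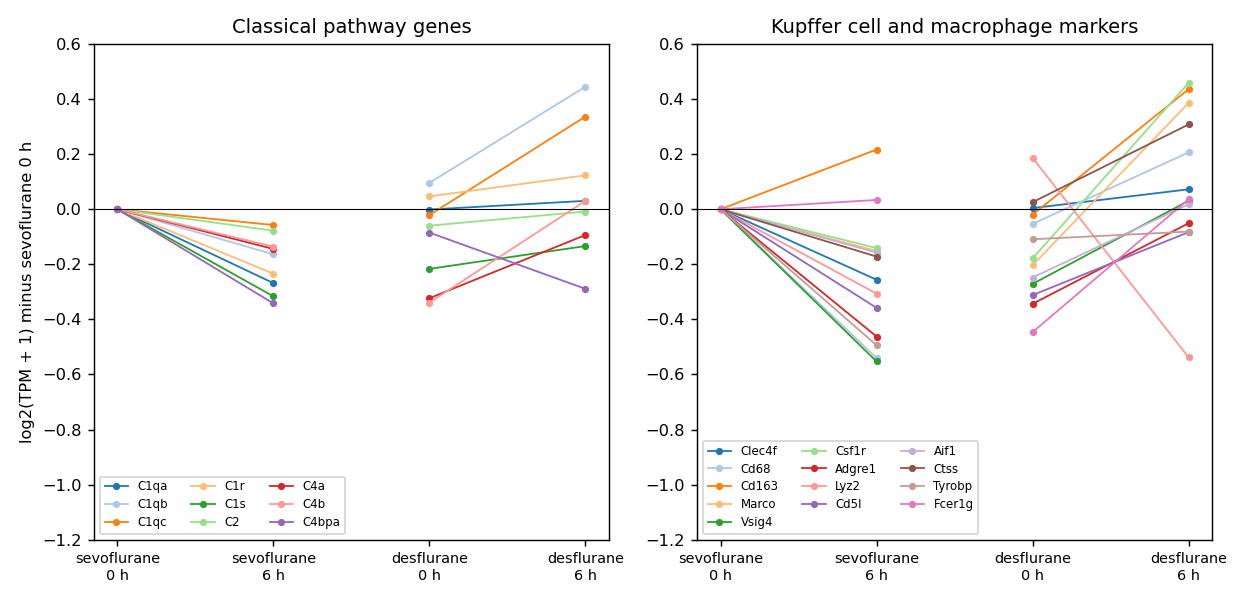
Difference in log2(TPM + 1) from sevoflurane 0 h for the 9 classical pathway genes (left) and 13 Kupffer cell and macrophage markers (right) in the 4 libraries, with the 0 h and 6 h points of an agent joined. Most points of both panels are lowest in sevoflurane 6 h, and *C1qb* and *C1qc* are highest in desflurane 6 h.

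The C1 proteases, which hepatocytes also make, were lower with sevoflurane too. *C1r* was at 403, 342, 416 and 439 TPM and *C1s* at 339, 272, 292 and 309 TPM, both lowest in sevoflurane 6 h, and the 6 h livers of the agents differed by 1.28-fold and 1.14-fold. *C2*, whose product is cleaved by C1s, stayed between 58.1 and 61.3 TPM. *C4a* was at 212, 192, 170 and 199 TPM and *C4b* at 51.3, 46.6, 40.3 and 52.4 TPM, with desflurane 0 h the lowest for both. The row of *C4a* spans that of *C4b* on the same strand and the copies are nearly identical, so the split of reads between them is uncertain. The assembled locus that overlaps them most was at 301, 367, 207 and 240 TPM. By that locus the level was higher at 6 h with both agents, so the direction with sevoflurane depends on the measure. *C4bpa*, which encodes the main chain of C4b-binding protein, an inhibitor of this pathway, was at 507, 400, 478 and 414 TPM. Unlike the activating proteins, it was lower at 6 h with both agents (by 21.1% and 13.2%).

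All 4 lectin pathway genes were lower at 6 h with both agents by their named rows. *Masp1* was an exception with desflurane after scaling by the median of ratios. With assembled loci *Masp1* was higher at 6 h with both agents, from 37.5 to 40.1 TPM with sevoflurane and from 37.4 to 38.9 TPM with desflurane. *Mbl1*, encoding mannose-binding lectin A, was at 156 TPM in sevoflurane 0 h, 119 in sevoflurane 6 h, 178 in desflurane 0 h and 123 in desflurane 6 h (rn6 chr16:18736154-18742193). The 6 h livers lay below both controls, by 1.31-fold with sevoflurane and 1.45-fold with desflurane, while the controls differed by 1.14-fold. *Masp1* and *Masp2*, the proteases bound to these lectins, were lower by between 3.0% and 9.9%, with *Masp1* between 26.6 and 28.4 TPM and *Masp2* between 93.8 and 104 TPM.

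*Mbl2*, encoding mannose-binding lectin C, was at 318 TPM in sevoflurane 0 h, 130 in sevoflurane 6 h, 175 in desflurane 0 h and 128 in desflurane 6 h when its rows were summed. The size of the first value comes from the number of rows. The sevoflurane 0 h table lists the gene in 2 rows, at chr1:248436160-248441053 (162 TPM) and chr1:248724461-248729353 (157 TPM), where the other 3 tables list a single row that spans both places. With the rows averaged, sevoflurane 0 h was at 159 TPM, and *Mbl2* was 1.22-fold lower at 6 h with sevoflurane and 1.37-fold lower with desflurane. The loci that were assembled from the reads at both places summed to 227, 176, 235 and 172 TPM, which is 1.29-fold and 1.37-fold lower at 6 h, with the controls 1.04-fold apart. The lower level at 6 h was thus present by each measure and with both agents, and the 2-fold call was present only with the rows summed. *Mbl2* is the 1 gene of the 45 whose number of rows differs between libraries, as it does for 91 symbols in all.

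**Figure D5:**
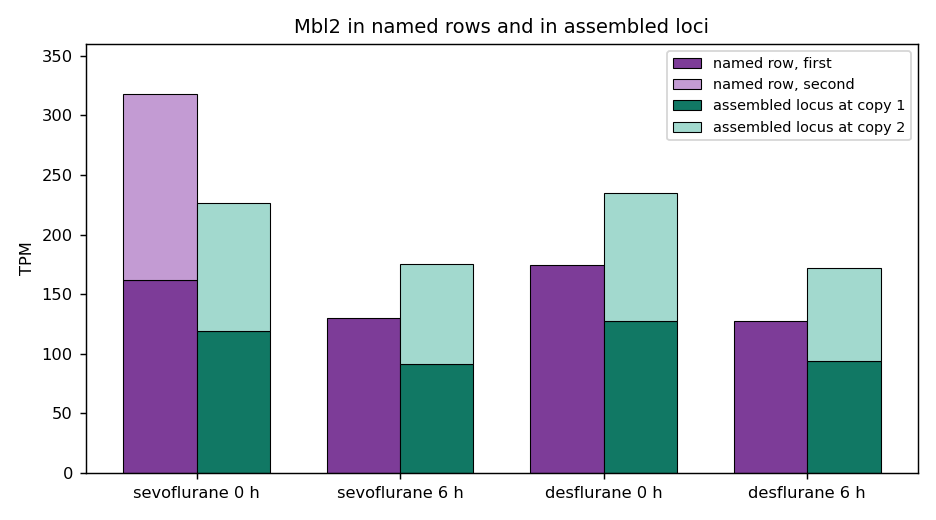
TPM of *Mbl2* in the 4 libraries, as the sum of its named rows (purple, stacked) and as the sum of the loci assembled at its 2 places (green, stacked). The sevoflurane 0 h bar of named rows is split in 2 rows of 162 and 157 TPM, while the green bars of the 2 controls are 227 and 235 TPM high.

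*C3*, the protein on which the pathways converge, was at 2684, 2668, 2661 and 2505 TPM. In the alternative pathway, *Cfb* (factor B, the protease that C3b binds) was at 931, 896, 1060 and 945 TPM, and *Cfi* (factor I, which cleaves C3b) ranged from 386 to 450 TPM. *Cfp* (properdin, which stabilizes the C3 convertase and is made by leukocytes) was at 30.3, 24.2, 25.9 and 27.5 TPM, lowest in sevoflurane 6 h. *Cfd* (factor D, which cleaves factor B and is made mainly by fat cells) was at 17.9, 15.5, 17.3 and 19.7 TPM and, as for C1q, was lowest in sevoflurane 6 h and highest in desflurane 6 h.

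For the membrane attack complex, 5 of the 7 listed genes had a row, 3 of them higher with sevoflurane and all 5 lower with desflurane (3 of 5 after scaling by the median of ratios). *C6* was at 114, 134, 97.0 and 96.2 TPM, so that both desflurane livers lay below both sevoflurane livers, and the 6 h livers differed by 1.39-fold. By its assembled locus *C6* was at 104, 103, 86.3 and 85.5 TPM. That order between the agents was thus kept, but the higher value at 6 h with sevoflurane was not. *C9*, which forms the pore, was at 856, 745, 825 and 757 TPM, lower at 6 h with both agents. The 3 chains of C8 did not move together. *C8a* was at 365, 359, 383 and 341 TPM, *C8b* at 236, 262, 263 and 254 TPM and *C8g* at 227, 275, 274 and 239 TPM. By its assembled locus *C8b* was at 231, 215, 236 and 231 TPM, lower at 6 h with sevoflurane.

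Counted over all 45 genes, both 6 h livers were above both 0 h livers in 3 genes (6.67%, against 22.8% of all genes) and below them in 14 genes (31.1%, against 27.9%). The 14 were *C4bpa*, *Masp1*, *Masp2*, *Mbl1*, *Mbl2*, *C8a*, *C9*, *F7*, *Fga*, *Fgb*, *Fgg*, *Kng1*, *Hrg* and *Cpb2*. By assembled loci the 6 h livers did not both lie below the controls for *Masp1*, *F7* and *Hrg*. The share below the controls is thus near that of all genes, and the share above them is smaller. After scaling by the median of ratios 12 genes were below the controls (26.7%, against 26.2% of all genes), without *Masp1*, *F7* and *Hrg* and with *Serpind1*, and 6 were above them (13.3%, against 26.5%), which were *C8b*, *F2*, *F5*, *F9*, *F11* and *F12*.

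With limma, 6 h was tested against 0 h over all 4 libraries, with the agent as a block and adjustment over 8024 genes. In this fit the residual is the difference between the agents, not a spread between replicates. Of the 45 genes 3 passed an adjusted p of 0.05, against 8.62% of all genes tested. *Fgg* fell by 0.39 on the log2 scale (SE 0.106, adjusted p = 0.0374) and *Mbl1* fell by 0.46 (SE 0.129, adjusted p = 0.0464). *Mbl2* had a change of -0.87 (SE 0.174, adjusted p = 0.00724) with its rows summed and of -0.37 (adjusted p = 0.121) with its rows averaged, over a range of adjusted p from 0.0107 to 0.322 among all alternatives. The next lowest were *F5* (0.58, SE 0.186, adjusted p = 0.0847) and *Fga* (-0.31, SE 0.106, adjusted p = 0.112). For *F11* the adjusted p was 0.191 and for *Fgb* it was 0.196. None of these calls held in every setting, and 0 of the 45 genes passed without the block (8 had an unadjusted p under 0.05) or after scaling by the median of ratios (6 genes had one). Across the alternatives the adjusted p ran from 0.0384 to 0.299 for *Fgg* and from 0.0479 to 0.373 for *Mbl1*, with both changes negative in each.

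Between the agents, at 6 h the median of the 45 genes was -0.05 (desflurane minus sevoflurane), beside -0.03 for all genes. The largest differences were in *C1qb* (0.61) and *C6* (-0.47), followed by *C1qc* (0.39) and *F5* (-0.38). All 8 procoagulant factors had a lower value with desflurane than with sevoflurane at that time (median -0.13), and all 9 classical pathway genes were higher (median 0.18). Between the controls the median was 0.02, beside 0.11 for all genes, and after scaling by the median of ratios 11 of the 45 genes instead of 24 were higher in desflurane 0 h.

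Related genes of both systems were taken from lists beside the 45 genes. Of all genes above 2 TPM, 8.75% were called with sevoflurane and 9.65% with desflurane, in either direction. Of 16 complement regulators and receptors at 1 TPM or more, 0 were called higher or lower with either agent. *C4bpb*, the other chain of C4b-binding protein, was at 367, 333, 372 and 304 TPM. *Crp*, an acute phase protein that activates C1q, was at 1264, 1920, 1448 and 1553 TPM.

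Of 24 other coagulation and fibrinolysis genes, *Serpina5* was called higher with sevoflurane and *F3* was among those called higher with desflurane, and none were called lower by the same rule. *Serpina5*, the protein C inhibitor, was at 1.49, 3.63, 1.81 and 2.64 TPM. *F3*, encoding tissue factor, which starts coagulation, was at 0.712, 1.94, 0.380 and 2.94 TPM. Both were at most 3.63 TPM in any library, where a TPM of 2 corresponds to a mean coverage of only 4.72 to 7.28 per base. *Thbd*, the thrombin receptor of endothelium, was at 3.56, 1.96, 3.39 and 5.64 TPM and was among the genes called higher in desflurane 6 h than in sevoflurane 6 h.

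In the cofactor and secretion list, *Ggcx* and *Vkorc1*, the enzymes of vitamin K-dependent carboxylation, were at 42.1, 37.3, 42.1 and 38.2 TPM and at 98.6, 123, 118 and 118 TPM. *Mcfd2*, part of the receptor that carries factors V and VIII out of the endoplasmic reticulum, was at 120, 85.6, 122 and 81.8 TPM, lower at 6 h with both agents. *P4ha1*, a prolyl hydroxylase subunit, was called lower with both (7.59, 3.57, 8.17 and 2.75 TPM).

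Of 17 hepatocyte transcription factors at 1 TPM or more, 3 were called higher with sevoflurane (*Cebpd*, *Ppara* and *Nr1i2*), against 8.75% of all genes called in either direction. With desflurane 3 were called higher (*Cebpb*, *Ppara* and *Nr1i2*) and 2 lower (*Foxa1* and *Foxa2*), against 9.65%. The controls differed by the same rule, with 1 of the 17 higher in desflurane 0 h than in sevoflurane 0 h (*Cebpd*) and 2 lower (*Onecut1* and *Nr0b2*). Of all genes, 2.76% differed between the controls by this rule, in either direction. *Cebpb*, a regulator of acute phase genes, was at 42.3, 79.3, 28.4 and 168 TPM. *Hnf4a* stayed between 86.4 and 129 TPM. In the interleukin-6 and acute phase list 18 genes were at 1 TPM or more. With sevoflurane 4 were called higher (*Il6r*, *Il1r1*, *Il1rn* and *Nfkbia*) and 1 lower (*Socs2*), against 8.75% of all genes in either direction. With desflurane 3 were called higher (*Il1r1*, *Il1rn* and *Nfkbia*) and 2 lower (*Socs2* and *Hamp*), against 9.65%. Between the controls 3 of the 18 were called higher in desflurane 0 h (*Il6r*, *Il1rn* and *Hamp*), against 2.76% of all genes in either direction. *Il6* was listed at 0 in each library, *Il6r*, its receptor, was at 7.14, 39.9, 19.9 and 39.5 TPM, and *Socs3*, which it induces, was at 5.02, 6.37, 5.32 and 9.99 TPM. The haptoglobin gene *Hp*, an acute phase gene, was at 8805, 7913, 8561 and 7157 TPM, in the same order as the fibrinogen sum. *Saa4*, *Crp*, *Orm1* and *Lbp* of the same list did not share that order. *Saa4* was at 461, 536, 472 and 528 TPM, and *Crp*, given above, also had its higher values at 6 h with both agents. *Orm1* was at 818, 539, 497 and 506 TPM and *Lbp* at 14.0, 11.3, 14.3 and 22.6 TPM. Of the clock output genes, *Dbp* was at 0.40, 87.9, 1.92 and 44.8 TPM and *Tef* at 4.19, 29.1, 7.25 and 19.7 TPM, both higher at 6 h, and their part in the values of the complement and coagulation genes was not tested.

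Platelets also carry coagulation proteins, but of 8 platelet markers *Pf4* alone was above 1 TPM on average (at most 2.44 TPM in any library). Of 10 red blood cell markers 4 were at that level, and all of them were higher at 6 h with both agents, with sums of 471, 1259, 757 and 1398 TPM. Their part in the results was not tested.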

How the data were processed

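RNA was measured in 4 rat liver libraries (TruSeq Stranded Total RNA Gold kit, per the labels), 1 for each agent and time, grouped by their titles. The submitters' processing notes name HISAT2, SAMtools, StringTie and the build rn6, without versions. The authors deposited TPM, FPKM and coverage signal for named genes and for loci that were assembled from reads. This deposited column of TPM is treated as a score, since the assembled loci alone add up to 1000000 and the named genes come on top. FPKM and coverage gave the depth, and without read counts no counting interval can be given. 

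Rows of a symbol were summed, and genes spanning 200 bp or less were left out. Changes are differences of log2(TPM + 1), which understate low genes. A gene was called at a ratio above 2 with more than 2 TPM in the higher library, with no p-value. The 6 h libraries were compared with the 0 h libraries, agent as a block, by limma 3.58.1 (R 4.3.3, two-sided, eBayes with a variance trend, adjusted by Benjamini-Hochberg, genes with a mean of at least 2 TPM, 1 residual degree of freedom). The steps were tested on simulated data. The 47 genes, the lists, the tests and the alternatives were chosen with earlier results of these data known. Values in every library are given for called genes, the 3 largest rises and falls per agent, the 5 most abundant genes, the 3 lowest adjusted p and the chains of complexes, and some others were named after their values were seen. Some related genes are not reported here.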

Additional observations from a re-analysis of the deposited data

Results flagged for a closer look

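One result came from data outside the comparisons. Between *Mroh2b* and *Card6*, which flank *C7* in the RefSeq gene order of GRCr8, the deposited tables hold an unnamed assembled locus on the minus strand (rn6 chr2:54707624-54741555). It was at 6.09 TPM in sevoflurane 0 h, 6.54 in sevoflurane 6 h, 6.40 in desflurane 0 h and 7.98 in desflurane 6 h. Both 6 h values were above both control values, which raised it for a closer look. The margin is small (6.54 against 6.40 TPM), and 22.8% of all 9201 named genes lay above both controls in this way. A second locus beside it was at 4.96, 5.37, 4.21 and 4.91 TPM, and its groups overlap. Neither locus is named *C7* in the tables, so they were not counted with the 45 genes.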

How the results depend on the processing

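With sevoflurane the count of called genes went from 1 to 2 (*Mbl2* and *F5*) at a ratio above 1.5, to 0 at a ratio above 3, to 0 against the control of the other agent, to 2 (*Cfd* and *F5*) with assembled loci, and to 0 with the rows of a symbol averaged, an alternative chosen after seeing the data. With desflurane it went from 0 to 1 (*Mbl2*) against the other control and to 2 (*Cfd* and *Hrg*) with assembled loci. In the latter the locus with most overlap was a longer one that spans the gene (for *Hrg* at 0.741 TPM in desflurane 6 h), and the loci with about the ends of the gene itself were at 15.5 and 19.7 TPM for *Cfd* at 6 h and at 907 TPM for *Hrg* in desflurane 6 h. With assembled loci the direction of change turned in 6 of the 45 genes with sevoflurane and in 3 with desflurane. Scaling by the median of ratios moved the median with desflurane from -0.09 to 0.022 and that between controls from 0.02 to -0.11. Other alternatives moved a median by less than 0.1. The number of genes past the limma threshold went from 3 to 0 without the block, 1 with a minimum of 1 TPM, 0 with the median of ratios, 0 without a variance trend, and between 0 and 1 with a library left out and no block (1, *Mbl2*, without desflurane 0 h, and 0 without any of the other libraries), where the lone library of an arm is assumed to vary like the others. The cause was not tested. No paired analysis was possible because the 0 h and 6 h livers come from different rats, and the agent block is part of the limma fit itself. Depth limits the genes at a few TPM.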

Other observations

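*C5*, which encodes the protein that starts the membrane attack complex, had no row under its symbol. In the RefSeq order it lies between *Traf1* and *Rab14*, where the deposited tables hold unnamed loci on the minus strand of chromosome 3. The locus at chr3:14207032-14229126 (rn6, as listed in sevoflurane 0 h) was at 183 TPM in sevoflurane 0 h, 147 in sevoflurane 6 h, 182 in desflurane 0 h and 146 in desflurane 6 h. The locus at chr3:14049992-14112853 was at 159, 143, 155 and 130 TPM. In both, the 6 h livers were below the controls, as were those of 27.9% of all 9201 named genes. Another locus on that strand, at chr3:14273228-14291362, was at 25.1, 26.0, 27.5 and 19.8 TPM, and there sevoflurane 6 h was above its control and the groups overlap. Another gene of the C5 family lies in the same stretch in GRCr8, so it was not settled which locus is *C5*.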
